A study of Mus musculus with 6 samples.

Results

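The genes described here are 42 chaperones, folding enzymes, stress sensors and degradation factors of the endoplasmic reticulum (ER), taken by name from the 54532 Ensembl genes measured in each library. They comprise 15 ER chaperones and co-chaperones, 8 protein disulfide isomerases and oxidases, 9 sensors, ER-bound transcription factors and their proteases, and 10 genes of ER-associated degradation (ERAD). Targets of ATF4 were kept out of the set. RNA was measured by sequencing in the livers of 8 week old adult male C57BL/6J mice: 3 whose fathers had received saline (paternal saline, the controls) and 3 whose fathers had received nicotine (paternal nicotine). No treatment of the offspring themselves is named in the labels, and the nicotine dose, its route and duration and the number of fathers and litters are not given in any source used here. The p-values therefore measure the spread between these 6 livers, which may share fathers or litters.

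The ER folds the proteins that a cell secretes, and hepatocytes secrete most plasma proteins. When unfolded chains build up, the sensors IRE1 (gene Ern1), PERK (Eif2ak3) and ATF6 start the unfolded protein response. IRE1 splices Xbp1 mRNA into the form that encodes an active transcription factor, ATF6 is cut free from the membrane by the site-1 and site-2 proteases Mbtps1 and Mbtps2, and both factors raise transcription of chaperone and ERAD genes. ATF6 acts through the ER stress response element (ERSE), a CCAAT box and a CCACG box held at a fixed distance.

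Promoter sequence was available for 36 of the 42 genes, as RefSeq windows of 250 bases before to 50 bases after each annotated start (GRCm38.p6). Both strands were searched for the ERSE, spelled as CCAAT, any 9 bases and CCACG. It was present in 9 of the 36 genes (25%), Calr, Canx, Creld2, Derl3, Dnajc3, Hsp90b1, Hspa5, Pdia6 and Syvn1, against 37 of all 27025 genes with a window (0.137%). Among the 6141 genes with a window that entered the test described below, 12 held it (0.195%), these 9 included. The set was chosen as unfolded protein response genes, so its share is a description. The stretches below are those of the 6 members with the element that had the lowest p in the expression test described below. Canx, Derl3 and Syvn1 are therefore not printed. The stretches run 5′ to 3′ on the strand of the gene to show the spacing and orientation of the element. Capitals mark the CCAAT and CCACG boxes, or ATTGG and CGTGG where the element lies on the opposite strand.
Hspa5, chr2:34772013-34772055, plus strand: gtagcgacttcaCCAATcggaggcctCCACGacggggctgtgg
Pdia6, chr12:17266479-17266521, plus strand: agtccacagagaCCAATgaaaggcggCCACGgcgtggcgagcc
Dnajc3, chr14:118937815-118937857, plus strand: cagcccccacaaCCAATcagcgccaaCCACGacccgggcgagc
Creld2, chr15:88819508-88819550, plus strand: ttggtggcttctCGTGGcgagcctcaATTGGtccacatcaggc
Calr, chr8:84847063-84847105, minus strand: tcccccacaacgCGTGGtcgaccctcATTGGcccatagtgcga
Hsp90b1, chr10:86705521-86705668, minus strand: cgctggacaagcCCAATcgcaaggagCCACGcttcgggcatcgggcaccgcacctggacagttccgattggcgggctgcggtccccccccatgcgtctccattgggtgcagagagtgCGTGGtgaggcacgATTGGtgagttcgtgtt
In Hspa5, Pdia6 and Dnajc3 the CCAAT box came first and the element ended 47, 80 and 87 bases before the start. In Creld2 and Calr it was reversed and ended 108 and 144 bases before the start. The Hsp90b1 stretch held a copy in each orientation, ending 194 and 89 bases before the start.

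Library totals ranged from 61837267 to 70089315 reads, as recovered from the deposited values, and 8383 to 8994 genes per library reached 1 RPKM (reads per kilobase of transcript, scaled to library size). Differences were tested with limma on log2(RPKM + 1) for the 8773 genes that averaged 1 RPKM or more, as paternal nicotine minus paternal saline. A gene was called at a Benjamini-Hochberg adjusted p under 0.05 over all 8773 genes. Over the whole table, 814 genes were called (9.28%): after paternal nicotine 341 were higher (3.89%) and 473 lower (5.39%). The livers matched their label by 11 hepatocyte markers, whose levels summed to at least 25989 RPKM in every library. This does not show that other tissue was absent. Pancreatic acinar markers summed to 5172 RPKM in paternal nicotine replicate 2, as described below.

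Of the 42 genes 40 were tested, and 21 of the 40 (52.5%) were higher in paternal nicotine livers while 0 were lower. At an unadjusted p under 0.05, 29 were higher and 0 lower, beside 10.9% of all tested genes higher and 15.3% lower (26.3% in all). Limma-voom on the recovered reads also called 21 higher and 0 lower, beside 3.7% and 4.9% of all tested genes (8.61% in all). The log2 fold change was positive in 39 of 40, and its median was 0.81 against -0.02 over all tested genes. In 30 of the 40 the 3 paternal nicotine libraries lay above the 3 paternal saline libraries, and in 0 below. Over all tested genes, the groups did not overlap in 33.6%, with 14.4% higher and 19.2% lower. In whole liver tissue, a change in the number of cells of a type and a change in RNA per cell cannot be told apart. By role, 12 of 15 chaperones, 4 of 7 disulfide isomerases, 2 of 8 sensors and factors and 3 of 10 ERAD genes were higher, with median log2 fold changes of 1.22, 0.94, 0.51 and 0.55.

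**Figure D1:**
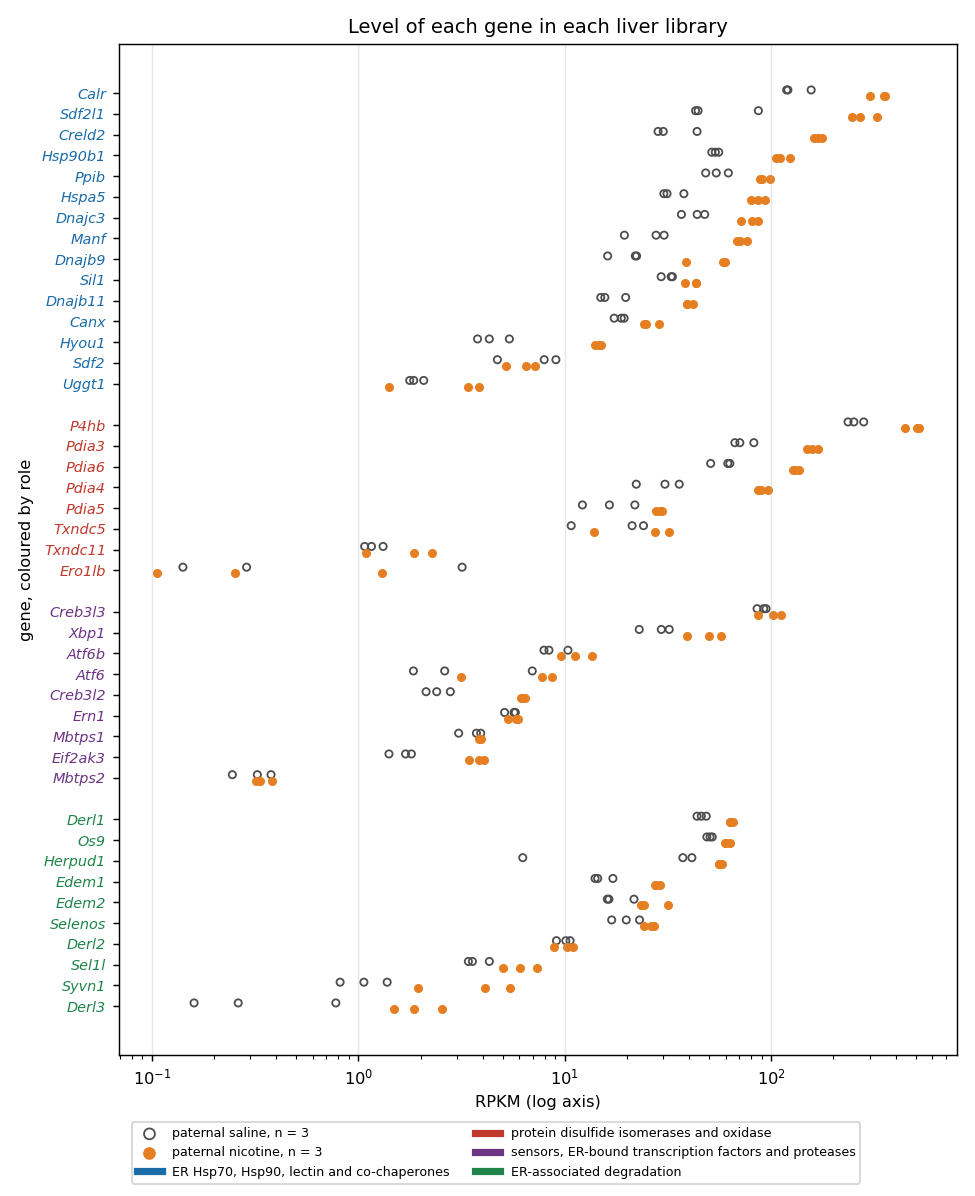
Level of each of the 42 genes in each library in RPKM on a log axis, grouped by role; open circles are the 3 paternal saline and filled circles the 3 paternal nicotine livers. For 12 of the 15 chaperones and 4 of the 8 isomerases and oxidases the groups stood apart and the test was passed. The groups overlapped in 10 of the 40 tested genes, namely Sdf2, Uggt1, Txndc5, Txndc11, Atf6, Atf6b, Ern1, Mbtps1, Creb3l3 and Derl2.

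The ATP-driven chaperones rose. Hspa5 encodes BiP, the ER Hsp70 that binds unfolded chains and the lumenal domains of the sensors; it lies on chromosome 2 (34771970 to 34777547 in GRCm38, as all coordinates here). Its level was 31.2, 37.7 and 30.2 RPKM in paternal saline replicates 1 to 3 and 93.1, 86.5 and 79.4 RPKM in paternal nicotine replicates 1 to 3. The groups were far apart, at 33.04 ± 4.08 and 86.3 ± 6.84 RPKM (mean ± SD, n = 3 each, as in all such values below), a log2 fold change of 1.36 (SE 0.11, 95% interval 1.08 to 1.64, limma adjusted p = 0.00476). Hsp90b1, the ER Hsp90 known as GRP94 (chromosome 10, 86690209 to 86705509), was at 51.5, 53.6 and 55.6 RPKM in control livers and 123, 110.4 and 106 RPKM in the paternal nicotine livers. Its 3 controls lay close together, and the log2 fold change was 1.06 (SE 0.09, adjusted p = 0.00436). Hyou1, a large Hsp70 relative that exchanges the nucleotide of BiP (chromosome 9, 44379490 to 44392369), was at 4.31, 5.38 and 3.78 against 14.9, 14.05 and 14.7 RPKM. Its log2 fold change was 1.51 (SE 0.12, adjusted p = 0.00437). Sil1, the other exchange factor of BiP in the set, was at 33.2, 32.7 and 29.3 against 43.04, 38.1 and 43.0 RPKM. The Sil1 groups did not overlap, but the difference of 0.37 on the log2 scale (SE 0.09) had an adjusted p of 0.0588.

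The J-domain co-chaperones, which pass substrates to BiP, rose as well. Dnajb11 (ERdj3) was at 14.9, 19.7 and 15.6 RPKM in control livers and 41.97, 38.9 and 39.3 RPKM in paternal nicotine livers, a log2 fold change of 1.22 (SE 0.12, adjusted p = 0.00648). Dnajb9 (ERdj4), which also represses IRE1, was at 16.1, 22.2 and 21.9 against 59.7, 58.4 and 38.5 RPKM, giving a log2 fold change of 1.32 (SE 0.21, adjusted p = 0.0192). Dnajc3 (p58IPK), an inhibitor of PERK as well as a co-chaperone, was at 36.7, 47.6 and 43.7 against 86.3, 80.4 and 71.5 RPKM, giving a log2 fold change of 0.88 (SE 0.13, adjusted p = 0.0144). In all 3 genes the lowest paternal nicotine liver lay above the highest paternal saline liver. Of paternal nicotine libraries, replicate 3 was the lowest for Dnajb9 and Dnajc3. Leaving out paternal nicotine replicate 1 or 2 ended the calls of Dnajc3 (adjusted p = 0.0547 and 0.0649) and Dnajb9 (0.0658 and 0.077), and leaving out paternal saline replicate 1 or 3 also ended that of Dnajb9 (0.0662 and 0.0562).

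On the log2(RPKM + 1) scale, the highest fold changes among the 40 tested genes were those of Sdf2l1 and Creld2. As plain ratios of group means, Creld2 was at 4.95, the weakly expressed Derl3 at 4.92 and Sdf2l1 at 4.84. Sdf2l1, an ER protein that works with Dnajb11 (chromosome 16, 17130138 to 17132383), was at 44.2, 86.6 and 43.0 RPKM in control livers and 246, 269 and 326 RPKM in paternal nicotine livers. Paternal saline replicate 2 stood well above the other 2 controls, yet far below every paternal nicotine liver; the log2 fold change was 2.32 (SE 0.29, 95% interval 1.60 to 3.04, adjusted p = 0.0113). Creld2, an ER stress-inducible disulfide isomerase-like protein that can be secreted (chromosome 15, 88819646 to 88826683), was at 30.0, 43.7 and 28.3 against 169, 176 and 160.4 RPKM. Its log2 fold change of 2.30 (SE 0.17, 95% interval 1.88 to 2.72) had the lowest adjusted p of the set, 0.00324. Manf, a small ER protein that is retained through BiP and released under stress, was at 27.6, 30.2 and 19.4 against 67.9, 70.7 and 76.3 RPKM (log2 fold change 1.46, SE 0.17, adjusted p = 0.00845). Sdf2, the paralog of Sdf2l1, was at 9.05, 7.94 and 4.71 against 6.45, 5.20 and 7.16 RPKM. Its groups overlapped, and it alone of the 40 had a negative log2 fold change, -0.15 (95% interval -0.72 to 0.43, adjusted p = 0.733).

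Both lectin chaperones, which hold newly made glycoproteins until they are folded, were called. Calr, the soluble calreticulin (chromosome 8, 84841850 to 84846934), was at 119, 156 and 120.3 RPKM in control livers and 350.0, 300.003 and 354 RPKM in paternal nicotine livers, a log2 fold change of 1.35 (SE 0.14, adjusted p = 0.00648). Canx, the membrane-bound calnexin, was at 17.3, 18.8 and 19.4 against 28.7, 24.04 and 24.6 RPKM, a log2 fold change of 0.46 (SE 0.10, adjusted p = 0.0425). The Canx call was lost when any 1 of the 6 libraries was left out, with adjusted p between 0.073 (without paternal nicotine replicate 3) and 0.127 (without paternal saline replicate 1). Ppib, the proline isomerase cyclophilin B, was at 54.1, 61.9 and 48.1 against 90.1, 87.7 and 98.4 RPKM (log2 fold change 0.75, SE 0.11, adjusted p = 0.017), a call lost without paternal saline replicate 1 (adjusted p = 0.0667) or paternal nicotine replicates 1 or 2 (0.059 and 0.0641). Uggt1, which re-tags unfolded glycoproteins for another round with the lectins, was at 1.85, 2.07 and 1.77 against 1.41, 3.40 and 3.84 RPKM. Paternal nicotine replicate 1 was the lowest of all 6 libraries for Uggt1 and the other 2 were the highest; the log2 fold change was 0.36 (SE 0.27, adjusted p = 0.458), and 0.67 (adjusted p = 0.048) without that library, beside up to 0.742 in its other alternatives.

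Among the disulfide isomerases, which form and rearrange disulfide bonds, the 4 called members were P4hb, Pdia3, Pdia4 and Pdia6. P4hb, the founding member, was at 235, 280.2 and 251 RPKM in control livers and 521, 445 and 508 RPKM in paternal nicotine livers, with a log2 fold change of 0.94 (SE 0.11, adjusted p = 0.00776). Pdia3 (ERp57), the partner of calnexin and calreticulin, was at 66.6, 82.3 and 70.4 against 169, 149 and 157 RPKM, giving a log2 fold change of 1.11 (SE 0.11, adjusted p = 0.00648). Pdia4 (ERp72) was at 22.2, 35.8 and 30.5 against 86.3, 88.8 and 96.3 RPKM, and its log2 fold change of 1.61 (SE 0.18, adjusted p = 0.00743) was the highest in the family. In each of these genes, no paternal nicotine liver was within the range of the controls. Pdia6 (P5), which also damps IRE1, was at 61.5, 63.0 and 50.8 against 136, 127 and 130.2 RPKM (log2 fold change 1.16, SE 0.10, adjusted p = 0.00537). Pdia5 was at 16.4, 21.8 and 12.2 against 29.6, 27.7 and 29.0 RPKM; its groups did not overlap, but the difference of 0.78 (SE 0.20) had an adjusted p of 0.0674, and 0.0259 to 0.176 over its alternatives, the lowest without paternal saline replicate 2.

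The remaining thioredoxin-domain members did not pass. Txndc5 (ERp46) was at 21.2, 24.0 and 10.7 RPKM in control livers and 27.3, 13.9 and 31.9 RPKM in paternal nicotine livers, with 1 low library in each group and a log2 fold change of 0.36 (95% interval -0.64 to 1.36, adjusted p = 0.619). Txndc11 was at 1.32, 1.07 and 1.16 against 2.26, 1.09 and 1.85 RPKM (0.30, 95% interval -0.13 to 0.73, adjusted p = 0.34). Ero1lb, an oxidase that recharges disulfide isomerases, had a mean under 1 RPKM and was not tested. Its level was 0.141, 3.18 and 0.287 RPKM against 0.251, 1.30 and 0.106 RPKM, so that replicate 2 was the highest of each group.

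**Figure D2:**
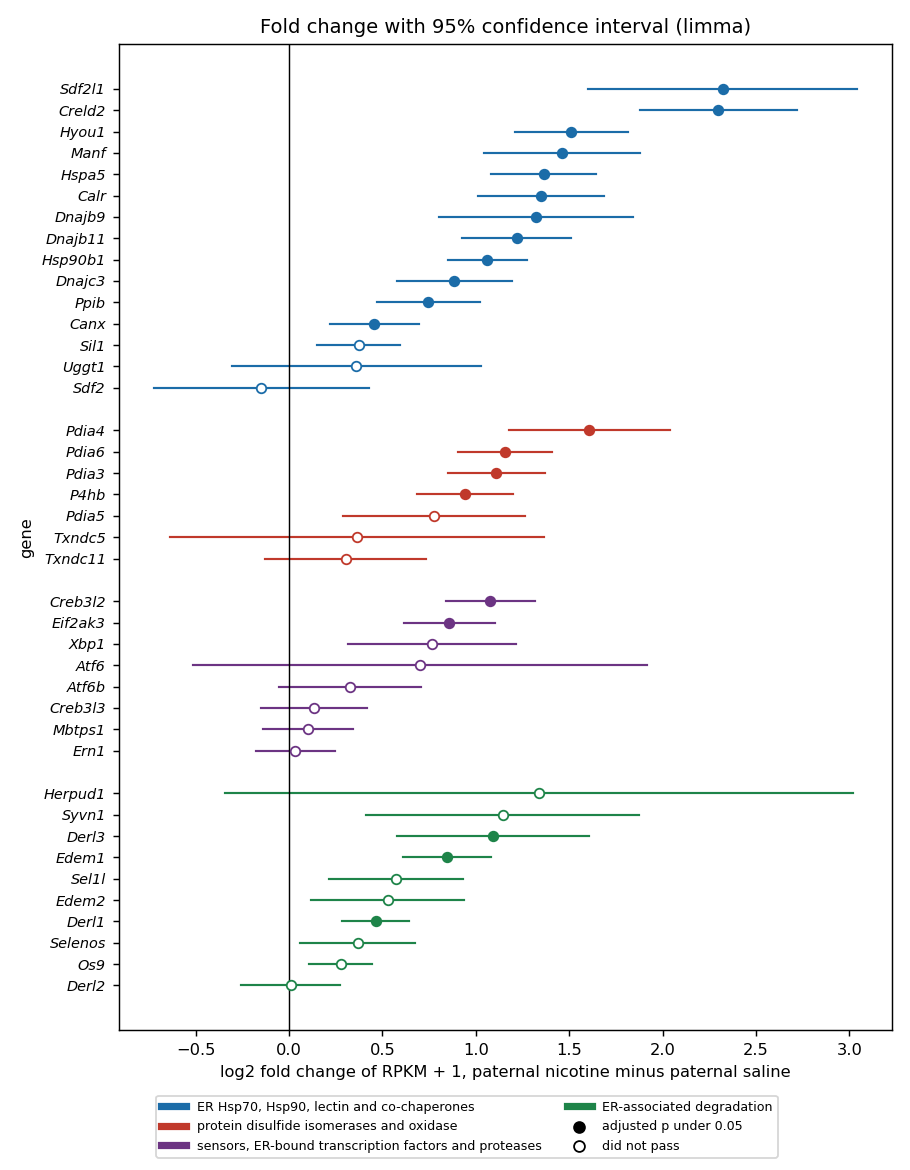
Log2 fold change of RPKM + 1, paternal nicotine minus paternal saline, with its 95% confidence interval from limma, for the 40 tested genes ordered within each role; filled points passed an adjusted p of 0.05. Sdf2l1 and Creld2 stand at 2.32 and 2.30, and only the point of Sdf2 lies below 0.

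Of the 3 classical sensors, the call was made for Eif2ak3 only. Eif2ak3, the PERK kinase that slows translation, was at 1.41, 1.69 and 1.81 RPKM in control livers and 4.05, 3.83 and 3.43 RPKM in paternal nicotine livers. The groups did not overlap, and the log2 fold change was 0.86 (SE 0.10, 95% interval 0.62 to 1.10, adjusted p = 0.00838). Ern1, which encodes IRE1, was at 5.11, 5.68 and 5.76 against 5.79, 5.29 and 5.91 RPKM. These ranges overlapped almost wholly, with a log2 difference of 0.033 and a 95% interval of -0.18 to 0.25 (adjusted p = 0.842). Atf6 varied widely within each group, at 1.85, 2.62 and 6.95 against 8.67, 3.14 and 7.79 RPKM. Its interval of -0.51 to 1.91 around a log2 fold change of 0.70 (adjusted p = 0.428) covered both no change and a large rise. Atf6b, its paralog, was at 8.38, 10.3 and 7.92 against 9.55, 11.2 and 13.6 RPKM (0.33, 95% interval -0.06 to 0.71, adjusted p = 0.255).

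Xbp1, the transcription factor gene downstream of IRE1 (chromosome 11, 5520659 to 5525893), was at 32.0, 29.3 and 22.9 RPKM in control livers and 57.2, 49.6 and 38.9 RPKM in paternal nicotine livers. Every paternal nicotine liver was above every control, at means of 48.6 ± 9.198 against 28.1 ± 4.68 RPKM, but the log2 fold change of 0.76 (SE 0.18) fell just short of the threshold with an adjusted p of 0.0567. Over the alternatives the adjusted p ran from 0.0322 to 0.168: it was 0.036 when only genes averaging 5 RPKM or more were tested and 0.0453 without paternal nicotine replicate 3, but 0.075 under median-ratio scaling, 0.152 without a filter and 0.168 without paternal nicotine replicate 2. These values are per gene, so spliced and unspliced Xbp1 mRNA cannot be told apart.

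Creb3l2, an ER-bound transcription factor of the CREB3 family, was at 2.13, 2.39 and 2.79 RPKM in control livers and 6.41, 6.19 and 6.10 RPKM in paternal nicotine livers, with a log2 fold change of 1.08 (SE 0.10, adjusted p = 0.00537). Its spread within paternal nicotine was small, with an SD of 0.161 RPKM. Creb3l3 (CREBH), the liver-enriched member of that family, was at 91.9, 85.3 and 94.3 against 112, 101 and 85.8 RPKM and overlapped (0.13, 95% interval -0.15 to 0.42, adjusted p = 0.523). The protease gene Mbtps1 was at 3.06, 3.73 and 3.91 against 3.90, 3.84 and 3.89 RPKM, a log2 difference of 0.10 (adjusted p = 0.568). Its 3 paternal nicotine values all lay inside the range of the controls. Mbtps2, with 0.245 to 0.377 RPKM in control livers and 0.32 to 0.382 RPKM in paternal nicotine livers, was below the level for testing.

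ERAD draws misfolded proteins out of the ER for destruction by the proteasome. In this group 3 of 10 genes were called while 9 of 10 had non-overlapping groups with paternal nicotine higher, beside 3.89% and 14.4% of all tested genes. Edem1, which marks misfolded glycoproteins by trimming mannose, was at 14.005, 17.1 and 14.4 RPKM in control livers and 27.5, 28.8 and 27.6 RPKM in paternal nicotine livers (log2 fold change 0.84, SE 0.10, adjusted p = 0.0081). Its relative Edem2 was at 16.3, 21.6 and 16.1 against 23.3, 24.2 and 31.6 RPKM (0.53, SE 0.17, adjusted p = 0.111). Of the derlins, membrane proteins of the exit route, Derl1 was at 45.8, 48.4 and 43.7 against 65.2, 62.7 and 63.1 RPKM (0.46, SE 0.07, adjusted p = 0.0185). That call was lost without paternal saline replicates 1 or 3 (adjusted p = 0.0691 and 0.0593) or paternal nicotine replicates 1 or 2 (0.0747 and 0.0763). Derl2 did not separate, at 10.1, 10.6 and 9.10 against 8.83, 10.3 and 10.9 RPKM, with a log2 difference of 0.0078 and a 95% interval of -0.26 to 0.27. Derl3, which per merged exon length was the least abundant of the derlins, was at 0.160, 0.262 and 0.778 against 1.86, 1.49 and 2.55 RPKM (1.09, SE 0.21, adjusted p = 0.0312). The added constant of 1 RPKM compresses a change at so low a level: with a constant of 0.1 the Derl3 log2 fold change was 2.21 (adjusted p = 0.0475). The Derl3 call was lost without paternal saline replicates 1 or 2 or paternal nicotine replicates 1 or 2 (adjusted p = 0.0959, 0.0799, 0.0908 and 0.0726), and without paternal nicotine replicate 3 its mean fell under 1 RPKM.

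Syvn1, the HRD1 ubiquitin ligase at the core of ERAD, was at 1.06, 0.815 and 1.38 RPKM in control livers and 5.42, 1.94 and 4.08 RPKM in paternal nicotine livers. The groups stood apart but paternal nicotine replicate 2 was the nearest to the controls; the log2 fold change was 1.14 (SE 0.30, adjusted p = 0.0707), and 1.46 (adjusted p = 0.0351) without that library, beside 0.0584 to 0.177 in its other alternatives. Sel1l, the partner of HRD1, was at 3.57, 4.31 and 3.41 against 6.07, 5.01 and 7.30 RPKM (0.57, SE 0.15, adjusted p = 0.0666). Herpud1, a scaffold of the HRD1 complex, was at 6.25, 41.2 and 37.3 against 57.6, 56.1 and 55.6 RPKM. Paternal saline replicate 1 was far below the other 5 libraries, which widened the interval around the log2 fold change of 1.34 to -0.34 to 3.02 (adjusted p = 0.286). Without that library the log2 fold change of Herpud1 was 0.51 (adjusted p = 0.0574). Os9, a lectin that hands glycoproteins to the complex, was at 50.5, 48.7 and 51.8 against 60.6, 59.5 and 63.4 RPKM (0.28, SE 0.07, adjusted p = 0.0653). Selenos, listed under its older symbol Vimp and known to bind the VCP ATPase, was at 19.8, 23.0 and 16.9 against 24.1, 27.2 and 26.1 RPKM (0.37, SE 0.13, adjusted p = 0.133). The groups stood apart in both genes. Over its alternatives the adjusted p of Os9 ran from 0.0286 under quantile normalization to 0.17 without paternal nicotine replicate 1.

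Several related genes moved to different degrees, and their ratios within a library were compared in 6 pairs chosen as paralogs or partners. The ratios printed are of plain RPKM, while the differences and their permutation test were taken on log2(RPKM + 1). That scale understates changes of low genes, so the differences do not follow exactly from the ratios. Each difference is that between the log2 fold changes of the paired genes given above. The ratios therefore restate those results as a description, and how often other gene pairs separate was not tested. The RPKM ratio of Sdf2l1 to Sdf2 was 4.88, 10.9 and 9.11 in paternal saline and 38.1, 51.7 and 45.6 in paternal nicotine livers. The difference was 2.47 on the log2(RPKM + 1) scale. The ratio of Eif2ak3 to Ern1 was 0.275, 0.298 and 0.314 against 0.700, 0.724 and 0.581 (difference 0.82), and that of Calr to Canx was 6.85, 8.31 and 6.21 against 12.2, 12.5 and 14.4 (difference 0.89). All 3 ratios were higher in every paternal nicotine liver than in any control. The same held for Derl1 to Derl2 (difference 0.46) and Creb3l2 to Creb3l3 (difference 0.95). Each of these 5 pairs had p = 0.1 in a two-sided exact permutation test, 0.12 after adjustment over the 6 pairs, and 0.1 is the smallest p that 3 against 3 libraries allow. The Edem1 to Edem2 ratio overlapped, at 0.857, 0.791 and 0.898 against 1.18, 1.19 and 0.871 (exact permutation p = 0.2).

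As a share of all reads, the 42 genes took 0.637, 0.761 and 0.652% in control livers and 1.39, 1.27 and 1.35% in paternal nicotine livers. The ratio of the group means was 1.95. The chaperones had the highest ratio in these sums, from 0.262 to 0.615% (2.35), ahead of the disulfide isomerases, from 0.210 to 0.415% (1.98), the ERAD genes, from 0.130 to 0.199% (1.53), and the sensors, from 0.0820 to 0.106% (1.30). Compared between genes on the scale of merged exons per gene, P4hb was the most abundant, with a mean level of 361 RPKM in control livers and 695 RPKM in paternal nicotine livers. Calr followed at 215 and 546 RPKM on that scale, and Creb3l3 came next in the controls at 127 RPKM. In paternal nicotine livers Sdf2l1 came next at 280 RPKM. Creb3l3, at 140.07 RPKM there, was below several other members, among them Pdia3 at 234 RPKM.

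**Figure D3:**
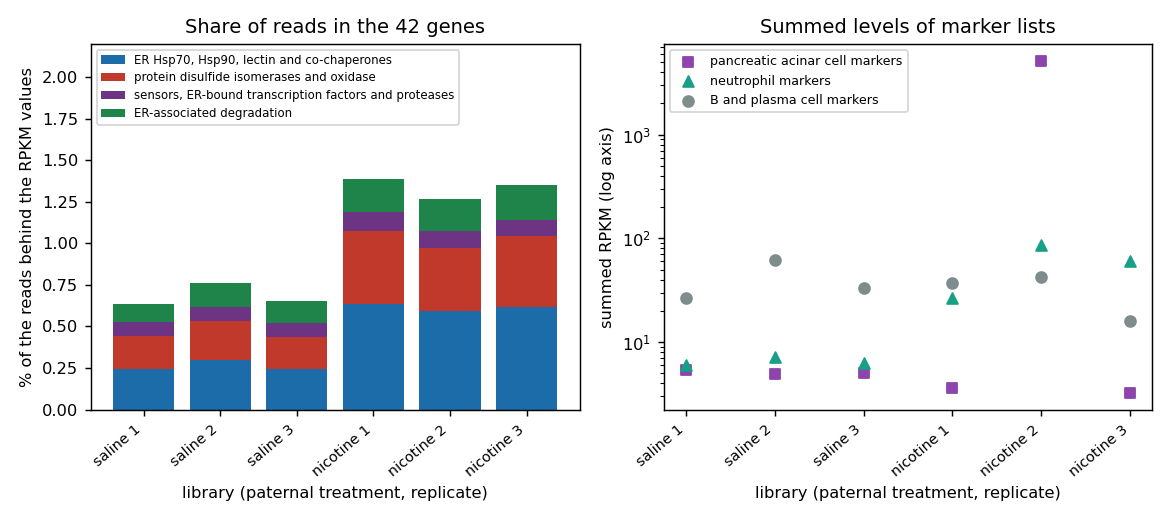
Left, the percentage of each library's reads in the 42 genes, stacked by role; right, the summed RPKM of pancreatic acinar, neutrophil and B and plasma cell markers in the same libraries on a log axis. The bars reach 0.637 to 0.761% in control livers and 1.27 to 1.39% in paternal nicotine livers, and acinar markers reach 5172 RPKM in paternal nicotine replicate 2 alone.

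Within groups the genes tended to share an order. Paternal saline replicate 2 was the highest control in 25 of the 40 tested genes (62.5%) and in 16 of the 21 called genes, against 36.8% of all tested genes. Paternal nicotine replicate 1 was the highest of its group in 22 of 40 (55.0%, against 28% of all tested genes) and paternal nicotine replicate 2 the lowest in 21 (52.5%, against 34.6%). The median coefficient of variation of the tested members was 13.3% in control livers and 8.07% in paternal nicotine livers, beside 12.9% and 12.2% over all tested genes. In 9 members the highest library of a group was at least 2 times the lowest, namely Uggt1, Sdf2l1, Txndc5, Txndc11, Ero1lb, Atf6, Herpud1, Syvn1 and Derl3.

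Cell type markers were read beside these levels, since secretory cells of other kinds also express ER chaperones. The 20 pancreatic acinar markers summed to 4.99 to 5.404 RPKM in control livers and to 3.63, 5172 and 3.24 RPKM in the 3 paternal nicotine livers. In paternal nicotine replicate 2, Ctrb1 was at 1621 RPKM and Prss2 at 662 RPKM, and both were at 0 in the other 5 libraries. Without that library 15 of the 40 tested genes were called higher (1.04% of all tested genes were higher and 1.08% lower, 2.12% in all), and their median log2 fold change over all 40 was 0.84. The replicate was the highest of its group in 3 of the 40 genes, Creld2, Edem1 and Selenos. Log2 fold changes without it were 1.36 for Hspa5, 1.42 for Calr, 2.27 for Creld2 and 2.35 for Sdf2l1, the last with an adjusted p of 0.0518.

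Plasma cells are also rich in ER chaperones. The 12 B and plasma cell markers summed to 26.4 to 61.9 RPKM in control livers and 15.8 to 42.7 RPKM in paternal nicotine livers. Limma called 0 of 4 tested, and also 0 at an unadjusted p under 0.05. Much of the sum was Sdc1, at 2.47, 39.1 and 26.5 against 33.4, 36.7 and 2.56 RPKM. Igkc added 19.0 and 18.1 RPKM in paternal saline replicates 1 and 2. Jchain was at 1.58, 0.816 and 1.84 against 0.837, 1.68 and 6.22 RPKM. Like Mzb1 and Cd79a, it was highest in paternal nicotine replicate 3, where the sum was lowest. Neutrophil markers summed to 6.02 to 7.19 against 26.8, 86.8 and 60.2 RPKM, led by S100a8, and 1 of 3 tested was higher. Cholangiocyte markers summed to 8.68 to 11.4 against 20.1 to 21.003 RPKM, with 2 of 4 tested higher, beside 3.89% of all tested genes. The 2 were Sox9 (mean 1.98 against 7.62 RPKM) and Spp1 (5.60 against 9.54 RPKM). Krt19 and Epcam were not called (limma adjusted p = 0.553 and 0.952), and Epcam averaged 1.24 against 1.25 RPKM. Macrophage markers summed to 354, 409 and 689 against 351, 638 and 1117 RPKM. Of these, 0 of 11 were called by limma, 1 at an unadjusted p under 0.05 and 0 by voom. T and NK cell markers summed to 2.08 to 2.51 against 1.47 to 10.1 RPKM, endothelial markers to 64.2 to 79.4 against 66.4 to 82.7 RPKM, and stellate cell markers to 46.2 to 53.2 against 48.0 to 59.7 RPKM, and limma and voom called 0 genes of these lists. None of the markers was at 0 in every library. The 11 hepatocyte markers summed to 36977 to 43635 RPKM in control livers and 25989 to 28566 RPKM in paternal nicotine livers. Of the 11, 2 were higher, 2 lower and 7 not called. Alb, serum albumin and the most abundant of them, was lower, from 23798 ± 4438 to 11791 ± 694 RPKM. Apoa2 was lower too, from a mean of 6403 to 4170 RPKM. The higher ones were Fgb, from a mean of 1357 to 4523 RPKM, and Trf, from 1021 to 1682 RPKM. The part of these differences in the results on the ER genes was not tested.

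Genes carrying the ERSE were then read against the test. Among genes with a promoter window, 18 members were called higher, and 8 of those held the ERSE (44.4%). Of the 17 tested members with a window that were not called, 1 held it (5.88%), namely Syvn1. Outside the set, only 3 further tested genes held it, of which 2 were higher and 0 lower. With the 9 members, 10 of all 12 tested genes with the element were higher and 0 lower. Of the 6141 tested genes with a window, 239 were higher (3.89%). The 3 outside the set were Acnat2 (log2 fold change 1.36, adjusted p = 0.0253), Alg12 (0.61, adjusted p = 0.0199) and Acacb (0.20, adjusted p = 0.724). Alg12 and Creld2 lie head to head, and their windows hold the very same ERSE bases, at chromosome 15 from 88819520 to 88819538. The members were chosen as unfolded protein response genes, with earlier results of these data known. The counts within the set, and the count over 12 genes of which 9 are members, are therefore a description. Alg12 and Creld2 share 1 site and are not separate cases of the element.

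The other elements were rare in the members. ERSE-II, spelled as ATTGG, any base and CCACG, was in Herpud1, 52 to 42 bases before the start, and in Dnajb11 just after the start, against 0.0444% of all genes with a window. Of the 7 tested genes with ERSE-II, 2 were higher (28.6%) and 0 lower, with a median log2 fold change of 0.04. Outside the set 1 of 5 was higher, with a median of -0.03. The UPRE core TGACGTGG, a site bound by XBP1 and ATF6, was in Txndc5 and Txndc11, neither of which was called, and 7 of the 65 tested genes with it were higher (10.8%). The short core CCACG, which is contained in the ERSE and ERSE-II and in reverse in the UPRE, was in 77.8% of member genes and 52.0% of tested genes. Of the 3192 tested genes with that core, 4.23% were higher, close to the 3.89% of all genes with a window.

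**Figure D4:**
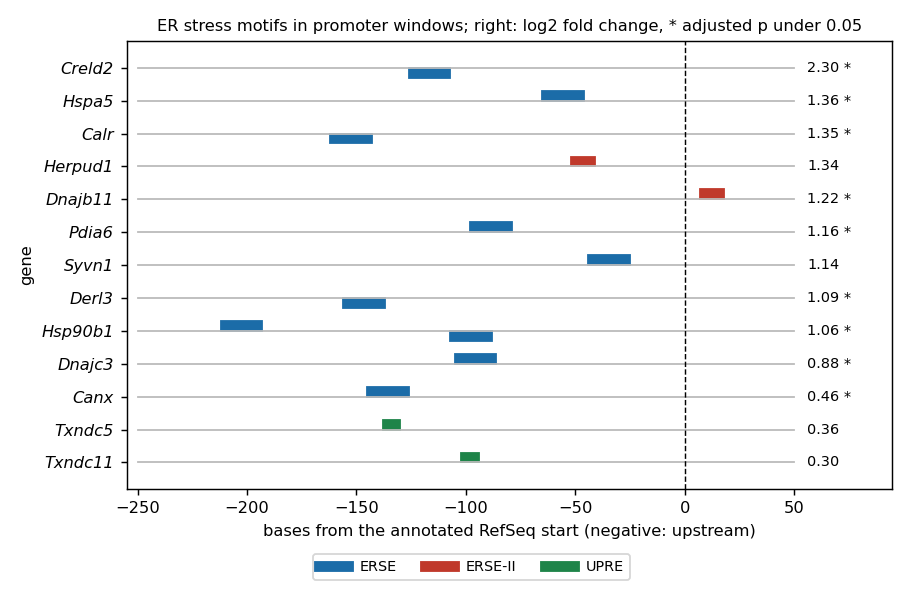
Position of ERSE, ERSE-II and UPRE matches in promoter windows of the 13 members that hold any of them, in bases from the annotated start; blocks above the line are on the gene's strand and blocks below on the opposite strand. The numbers at the right are log2 fold changes, and a star marks an adjusted p under 0.05. Blue ERSE blocks lie between 212 and 26 bases before the start, and 8 of the 9 genes with one carry a star.

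Further genes of the same pathways were read beside the 42. Of 36 tested further ER folding genes 7 were higher (19.4%, beside 3.89% of all tested genes) and 0 lower, with a median log2 fold change of 0.25. They were led by Nucb2, a calcium-binding protein (0.677 ± 0.246 against 2.86 ± 0.166 RPKM, adjusted p = 0.00691), and Dnajc10, an ER reductase with a J-domain (3.32 ± 0.0396 against 6.10 ± 0.296 RPKM, adjusted p = 0.00691). Next came Hspa13, an Hsp70 relative (2.98 ± 0.346 against 5.66 ± 0.755 RPKM), and Fkbp11, a proline isomerase of secretory cells (3.25 ± 0.658 against 7.18 ± 1.43 RPKM). By adjusted p the further ERAD genes were near the background of all tested genes, with 1 of 28 called (3.57%) and a median of 0.05. The called gene was Vcp, the extracting ATPase (43.9 ± 1.48 against 57.2 ± 2.78 RPKM, adjusted p = 0.0348). At an unadjusted limma p under 0.05, 6 of the 28 were higher and 0 lower, beside 10.9% and 15.3% of all tested genes. Of the further stress signalling genes, 1 of 17 was called (5.88%), Ptpn1, an ER-anchored phosphatase (5.33 ± 1.00 against 11.04 ± 0.496 RPKM, adjusted p = 0.0144). At the unadjusted threshold, 3 of the 17 were higher and 0 lower. The chaperones of the cytosol and mitochondria also had 1 of 28 higher (3.57%), Hspb1 (17.96 ± 2.65 against 44.0 ± 3.81 RPKM, adjusted p = 0.00666), and a median of 0.08. At the unadjusted threshold, 6 of these 28 were higher and 3 lower. Their groups did not overlap in 9 with paternal nicotine higher and in 3 with it lower, beside 14.4% and 19.2% of all tested genes.

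Genes of ER entry, glycosylation and COPII export had 20 of 37 higher (54.1%), 1 lower and a median log2 fold change of 0.51. Ssr1 and Srprb, parts of the translocon and the signal receptor, went from 5.61 ± 0.511 to 10.4 ± 0.499 RPKM and from 6.75 ± 0.953 to 12.8 ± 0.242 RPKM. Sec61a1, the channel itself, went from 12.8 ± 1.97 to 25.8 ± 2.05 RPKM (adjusted p = 0.012). Sar1b, the COPII GTPase needed for lipoprotein export, was the lower gene, from 227 ± 21.997 to 130.2 ± 9.26 RPKM (log2 fold change -0.80, adjusted p = 0.0117). Of 20 tested ATF4 and integrated stress response genes 5 were higher (25%) and 1 lower. The higher ones included Atf3 (log2 fold change 1.24), Ddit3, which encodes CHOP (1.13), Chac1 (2.16) and Asns (1.07), and the lower one was Shmt2 (-0.63). Without paternal nicotine replicate 2, 1.04% of all tested genes were called higher, against 3.89% in the main fit. In that fit, 2 of 36 folding, 0 of 28 ERAD and 0 of 17 signalling genes were called higher. The same held for 1 of 28 cytosolic and mitochondrial chaperones, 2 of 37 ER entry genes and 1 of 18 ATF4 genes. The median log2 fold changes there were 0.57 for the ER entry genes and 0.44 for the ATF4 genes, against 0.51 and 0.55 in the main fit. No test of the difference between these lists and the 42 genes was made.

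**Figure D5:**
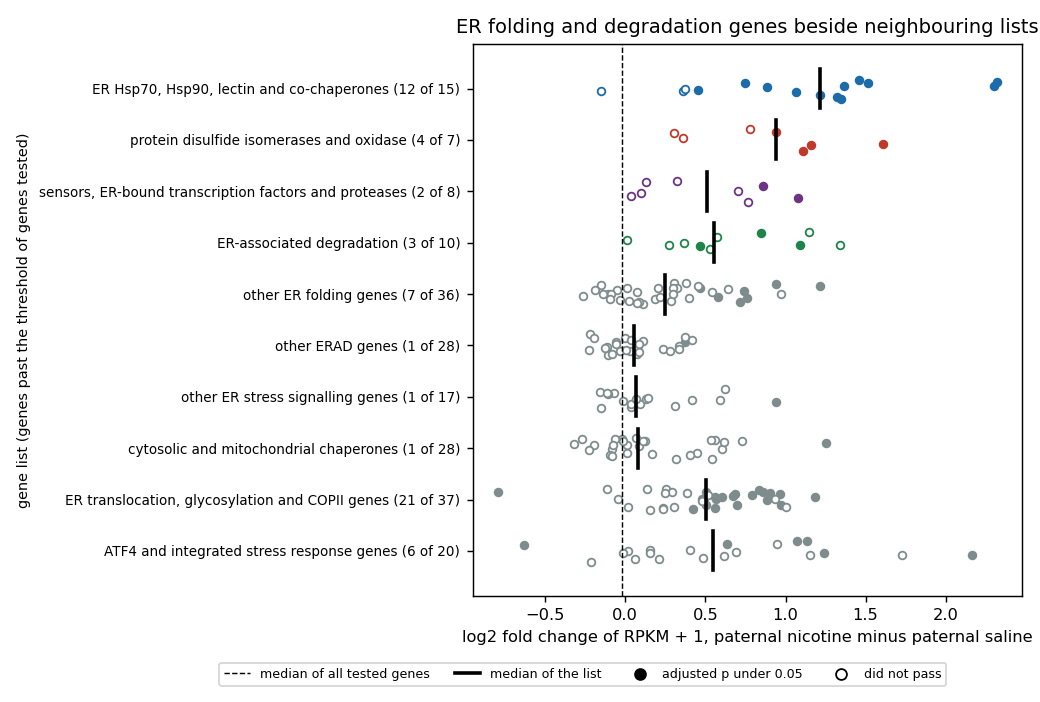
Log2 fold change of each tested gene, paternal nicotine minus paternal saline, by list; filled points passed an adjusted p of 0.05, thick bars are list medians and the dashed line is the median of all tested genes at -0.02. Chaperones and disulfide isomerases have medians of 1.22 and 0.94, beside 0.51 for genes of ER entry, glycosylation and COPII export and 0.08 for chaperones of the cytosol and mitochondria.

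Some levels may include reads of other genes. Exons of Syvn1 share 91 bases with Mrpl49 on the opposite strand, which was at 21.5 to 30.0 RPKM, and whether reads were counted by strand is not given. Hsp90b1 contains the annotated miRNA gene Gm25745 on its own strand, with 133 shared bases and a level of 171 to 194 RPKM in control livers and 349 to 393 RPKM in paternal nicotine livers. Sdf2 shares 242 bases with Supt6 on the opposite strand, which was at 5.21 to 8.40 RPKM, and Mbtps2 shares 2867 bases with Yy2 on its own strand. Further genes share at least 50 exonic bases with Derl2, Eif2ak3, Manf, Pdia6, Ppib, Txndc5 and Txndc11. Derl1 has a near-identical processed pseudogene, Gm35638, listed at 3.14 to 4.595 RPKM, Ero1lb has Gm18562 and Ppib has Olfr1152, listed at 0.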

How the data were processed

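Liver RNA was sequenced in 6 mice, 3 per paternal treatment, grouped by the labels. The authors deposited RPKM values for 54532 Ensembl genes per library. The submitters' processing notes list CASAVA, TopHat and the build mm8; the annotation, the strand setting and how multiply mapped reads were counted are not given in any source used here. Symbols and coordinates come from GENCODE M21 (GRCm38), which held 99.93% of the identifiers, and Vimp was found as Selenos. Placeholders under 1e-06 RPKM were set to 0. They showed that the deposited values used summed transcript lengths, so levels between genes were compared over merged exons. With these lengths all 25531 genes with a read came out as whole reads within 0.01, for 1200 of them with a searched length.

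Limma 3.58.1 (R 4.3.3; lmFit, then eBayes with the trend and robust options) tested log2(RPKM + 1), a scale that understates changes of low genes, in every gene averaging 1 RPKM or more, and p-values were adjusted over them by Benjamini-Hochberg. The fit was tested on simulated data. Alternatives were median-ratio and quantile scaling, a pseudocount of 0.1, no filter, a mean of at least 5 RPKM, no trend, voom on the recovered reads, a replicate block, and each library left out. The members and lists were chosen with earlier results of these data known. The text names every member, and of other lists up to 4 called genes by lowest p. Near-identical copies were sought with BLAST 2.17.0 at 95% identity over 200 bases.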

Additional observations from a re-analysis of the deposited data

How the results depend on the processing

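Of the 21 genes called, 14 remained so in each of the 14 alternatives that tested them, and 0 members were lower in any. Between 15 and 23 members were called higher, with 16 without a filter, 17 with the replicate block and 15 to 20 with 1 library left out; median-ratio and quantile scaling each gave 23. The median log2 fold change stayed between 0.76 and 0.90. Calls over the whole table went from 814 to 367 without a filter and 383 with the replicate block, both fitted on all libraries. With 1 library left out, and so with fewer samples, they ran from 185 to 658. They were 185 without paternal nicotine replicate 2 and 257 without paternal saline replicate 1. Leaving out paternal nicotine replicate 1 gave 273 and leaving out paternal saline replicate 3 gave 365. The causes of these differences were not tested. Same-numbered libraries had correlations of 0.0071, 0.0564 and 0.0494, so the numbers were not taken to pair the animals. The calls of Derl3, Dnajb9, Canx, Dnajc3, Derl1, Sdf2l1 and Ppib were lost in at least 1 alternative, and each was lost only with a library left out, without the filter or with the block. Genes called only in some alternatives were Xbp1, Sel1l, Pdia5, Sil1, Syvn1, Uggt1 and Os9. Signs changed only for differences near 0: with 1 library left out the log2 fold change of Sdf2 ran from -0.39 to 0.015, that of Ern1 from -0.012 to 0.074 and that of Derl2 from -0.052 to 0.087. Uggt1, Txndc11, Sel1l, Syvn1 and other members with means under 5 RPKM gave no value under the stricter filter.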
